A study of Drosophila melanogaster with 135 samples.

Results

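The genes described here are 9 genes of the insulin and TOR pathway of Drosophila melanogaster, namely Ilp6, ImpL2, InR, chico, Akt1, foxo, Tor, S6k and Thor. They were picked by gene symbol, not by a measured value, and make up 9 of the 17023 genes that each of 14 comparisons of mRNA lists. Polyadenylated RNA was sequenced from muscle or heads of male flies in 60 libraries, as 20 groups of 3. Each library pooled 30 muscles or 50 heads. The mutants carried 1 copy of a CRISPR deletion in a gene of Polycomb Repressive Complex 2 (PRC2), the enzyme complex that places H3K27me3 on chromatin. The single mutants were those of esc, Pcl, E(z) and Su(z)12 in muscle and heads and of p55 in muscle. The trans-heterozygotes, esc E(z) and Pcl Su(z)12, were sampled in both tissues, and all mutants at 30d. Their controls were WT flies of line 5905 at the same age, into which the mutants had been backcrossed, and a separate comparison set WT muscle at 30d against WT muscle at 3d. The alleles were esc289, E(z)239, Pcl421, Su(z)12253 and p55192, except that in the Pcl single mutant the libraries are labelled Pcl421, Pcl422 and Pcl423. The questions were how these transcripts differed between 30d and 3d, and between each mutant and WT.

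Insulin-like peptides bind the insulin receptor InR, and the adaptor chico passes the signal on to phosphoinositide 3-kinase and the kinase Akt1. Akt1 phosphorylates foxo and keeps this transcription factor out of the nucleus, so low insulin signaling frees foxo to act on its targets, among them InR and Thor. Akt1 also relieves the restraint on the kinase Tor, which activates the kinase S6k and inactivates Thor, the fly 4E-BP that blocks cap-dependent translation. In adult flies, Ilp6 is made largely by the fat body, and ImpL2 is a secreted protein that binds insulin-like peptides and holds them back. Reduced activity of this pathway is known to lengthen fly lifespan.

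To show where the loop from foxo back onto the pathway could be read in sequence, the windows from 250 bases before to 50 after each annotated start site were searched for the FOXO motif TTGTTTAC on both strands (GTAAACAA is its reverse complement). Of 19 windows of the 9 genes, 3 held a match, in Akt1, InR and Thor, against 4.66% of 19630 windows of all protein-coding genes. By gene, a match was found in 3 of 9 against 6.2% of 13968 genes. The 30 bases around each match are shown from the strand of the gene on dm6, with the motif in capitals.
Akt1, chr3R:16100581-16100610, plus strand: gacaataacaaTTGTTTACtatcagcgtga
InR, chr3R:21590249-21590278, minus strand: gacaattattgTTGTTTACtcacttgcata
Thor, chr2L:3478518-3478547, plus strand: acgcagtttgtGTAAACAAtcaaattgtcg
The match began at position -168 in Akt1, -76 in InR and 7 in Thor, counted from the start site of the window as 0. By the annotation, the match is intronic in 4 of 5 transcripts of Akt1 and in 3 of 4 of InR and lies upstream of the remaining 1. In Thor it is in the noncoding part of an exon in 2 of 2 transcripts. A match is a description of letters, not of binding.

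The deposited tables hold the mean normalized count of each group, which is the read count divided by a size factor per library. Because these means carry 10 digits, the whole reads of the 3 libraries could be solved from them for 93.6% to 100% of the genes with a mean of 10 to 1000 in each group. The 3 libraries of a group are given from the deepest to the shallowest. That order is not the replicate number of the labels. For 21 of the 126 pairs of gene and comparison, the mean was 1000 or more or had several solutions in 1 of the groups, and no test was made. Differences were tested by limma over all genes solved in both groups with a mean of at least 10, and a gene was called at a Benjamini-Hochberg adjusted p under 0.05. The labels number the libraries of a group without saying how the flies of each were raised, so p-values measure only the spread between libraries. Where groups are said not to overlap, the share of all genes that separate in this way was not counted. All 9 genes had a mean of at least 108 in every group, so none was lost to the filter on low values.

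Estimated depth was 12261350 to 29751126 gene reads per group of 3 libraries. A typical gene varied between libraries of a group with a coefficient of variation of 7.06% to 11.1%. The deepest library of Su(z)12 heads stood apart, with a median distance of 0.22 on the log2 scale from the other 2 of its group, against 0.10 for a typical library. The tissue labels were checked on marker lists. The 7 photoreceptor and neuron markers summed to at least 169500 in heads and at most 7271 in muscle, and the 8 muscle markers to at least 37130 in muscle and at most 15080 in heads. The 3 insulin genes of the insulin-producing cells of the brain summed to 649 to 1019 in heads and to 1.56 to 5.19 in muscle. The 7 fat body markers summed to 27000 to 66580 in muscle and to 33600 to 56210 in heads, although Fbp1 and Yp1 stayed below 17. Both tissues thus held fat body transcripts. The mutated gene itself was lower at an adjusted p under 0.05 for esc in esc muscle (ratio 0.318) and esc heads (ratio 0.598) and for p55 in p55 muscle (ratio 0.611). The ratios for E(z), Pcl and Su(z)12 lay between 0.82 and 1.12 and none was called. The ratios for esc in esc E(z) were 0.439 in muscle and 0.815 in heads, also without a call.

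Per kb of exon, the order of the 9 genes was nearly the same in all groups. Thor was highest in 20 of 20 groups, followed by ImpL2 and foxo, and InR was lowest. In WT heads, the control of the single mutants, Thor had 719.5, 664 and 687 normalized counts per kb, ImpL2 188, 177 and 198, and foxo 165, 164 and 154. InR had 26.0, 22.1 and 26.1 per kb in the same libraries. The ranges of these 4 genes did not overlap. S6k, chico and Akt1 took ranks 4 to 6 in changing order, and their neighbors overlapped in these heads, with 105 to 124 per kb for S6k, 92.8 to 114 for chico and 95.8 to 99.9 for Akt1. Ilp6 and Tor took ranks 7 and 8, with 94.6 to 99.6 per kb for Ilp6, which overlapped Akt1, and 44.3 to 51.3 for Tor. In WT muscle, again the control of the single mutants, Thor stood at a group mean of 1565 per kb, ImpL2 at 296 and foxo at 184. Levels in muscle and heads were scaled separately and were not compared. ImpL2 shares 61.9% of its exon length with CG46460, a gene of a later annotation on the same strand, and chico shares 10.6% with an antisense RNA on the other. On the shared bases, reads of CG46460 cannot be told from those of ImpL2. Reads were counted without strand, and how the antisense RNA bears on the count of chico was not tested.

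In aged WT muscle, Ilp6, Akt1 and Tor rose and chico fell, and InR and S6k did not pass the test. Ilp6, the insulin-like peptide of the fat body (chrX:2331493-2334658), had 240.3, 253 and 256 normalized counts at 30d, against 139.6, 179.5 and 165 at 3d. Every library at 30d lay above every library at 3d. The log2 change was 0.64 ± 0.11 (SE, n = 3 each, adjusted p = 0.000216). The 7 fat body markers summed to 1.25 times their 3d value in the same groups, but 81.7% of the 3d sum came from Rfabg. Without Rfabg the sum stood at 1.36 times its 3d value. By group means, 6 of 7 were higher, namely CG5966 (ratio 4.38), Obp99b (2.78), Rfabg (1.22), tobi (1.07) and the scarce Fbp1 and Yp1. Lsp2 was lower (0.721). The part of the fat body in the rise of Ilp6 was not tested. In whole tissue, more cells of a type and more RNA per cell cannot be told apart.

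Akt1, the kinase that restrains foxo (chr3R:16099228-16105670), had 954, 906 and 976 normalized counts at 30d, against 750.0, 755 and 691 at 3d. Tor, the kinase of the nutrient branch (chr2L:13004480-13013197), had 618, 659.5 and 611 at 30d, against 481, 515 and 466 at 3d. For both genes the ages did not overlap. Akt1 rose by 0.37 ± 0.06 and Tor by 0.37 ± 0.07 on the log2 scale (SE, adjusted p = 0.000158 and 0.000467). The adaptor chico (chr2L:10242512-10247078) moved the other way, with 485, 572 and 531 at 30d, against 772, 710.0 and 800.1 at 3d. Its log2 change was -0.52 ± 0.07 (SE, adjusted p = 4.86e-05), and again the ages did not overlap.

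The receptor InR (chr3R:21570248-21619321) had 384, 326 and 326 normalized counts at 30d, against 387, 284 and 323 at 3d. S6k, the kinase that Tor activates (chr3L:5797549-5810931), had 831, 886 and 851 at 30d, against 848, 724 and 814 at 3d. Libraries of both ages overlapped for these 2 genes, with log2 changes of 0.07 ± 0.11 for InR and 0.11 ± 0.07 for S6k (SE, adjusted p = 0.653 and 0.195). The other 3 genes have group means alone, which carry no replicate check. The transcription factor foxo (chr3R:14056945-14087978) had a mean of 1366 at 30d, against 1841 at 3d, a log2 ratio of -0.43 with a 95% interval of -0.49 to -0.37 that covers counting error only. Thor (chr2L:3478434-3479612) had means of 1877 at 30d and 2205 at 3d, a log2 ratio of -0.23 (-0.28 to -0.18). ImpL2 (chr3L:4224006-4236147) had 1323 at 30d and 1274 at 3d, and the interval of its log2 ratio, -0.01 to 0.12, included 0.

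**Figure D1:**
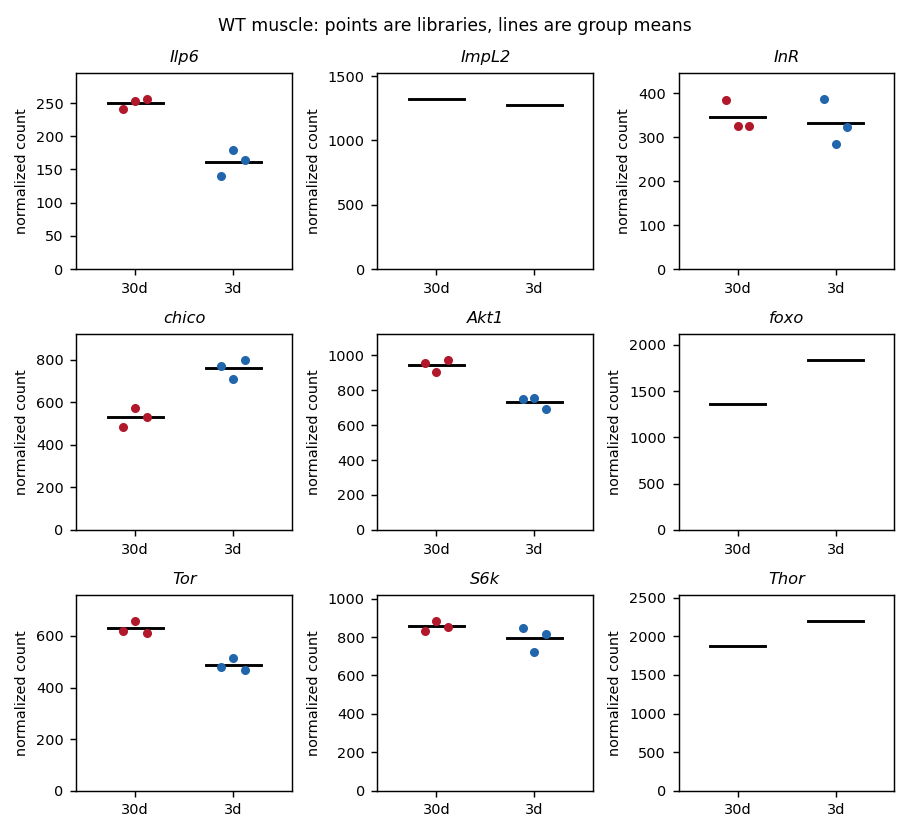
Normalized count of each of the 9 genes in WT muscle at 30d (left) and 3d (right). Points are libraries, lines are group means, and ImpL2, foxo and Thor have lines alone because their libraries could not be solved. The 3 libraries at 30d lie above those at 3d for Ilp6, Akt1 and Tor and below them for chico.

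Of the 6 genes tested with age, 4 were called, beside 44.6% of all genes tested. By group means, Ilp6 alone of the 9 passed 1.5-fold with a ratio of 1.55, beside 24.1% of all genes. These age values rest on the scaling. The normalized counts sum to 7305280 at 30d and 11591935 at 3d, and the 8 muscle markers stood at 0.369 of their 3d sum. The photoreceptor and neuron markers in the same muscle groups stood at 0.582, with Syt1 (ratio 0.507), nSyb (0.599), norpA and elav lower and the other 3 higher. The part of either list in the fall of chico was not tested. With the groups scaled to equal sums, the median log2 change of all genes tested moved to 0.70, against 0.04 with the authors' size factors. Then 5 genes rose, namely Ilp6 (1.30), Akt1 (1.03), Tor (1.03), S6k (0.77) and InR (0.73), and chico stood at 0.14, turned in sign and not called (adjusted p = 0.0898). Over all genes, 1786 rose and 1646 fell with the size factors, and 6082 rose and 256 fell with equal sums.

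Among 49 other genes of the pathway found in the tables, 30 were tested with age, of which 3 rose and 9 fell. These were 40% called, beside 44.6% of all genes tested. The lipase gene Lip4, a foxo target, rose by 1.27 ± 0.10 on the log2 scale (SE, adjusted p = 1.93e-07), and the growth regulator Myc by 0.80 ± 0.11 (adjusted p = 4.1e-05). The adaptor gene dock showed the largest fall, a log2 change of -0.73 ± 0.08 (adjusted p = 5.6e-06). Of 6 tested genes that act next to the receptor, as chico does, 5 fell with age, dock included. Beside them, 1646 of the 7694 genes tested fell. Among the 5 were step, Lnk and Pi3K92E, named after their values were seen, with log2 changes of -0.64, -0.40 and -0.24. Pi3K92E encodes a catalytic subunit of phosphoinositide 3-kinase. Of the 8 genes of the Tor complexes and their control, Lst8 rose and Sin1 and Tsc1 fell. Under equal sums, 24 of these 30 genes rose and none fell, where all genes shifted together by 0.66 on the log2 scale.

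**Figure D2:**
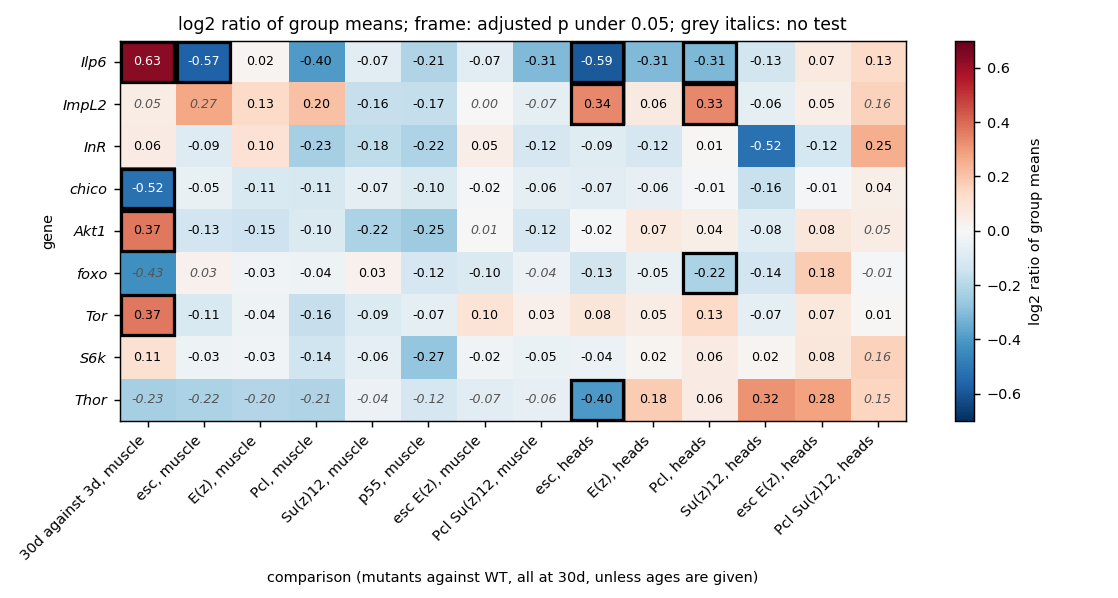
Log2 ratio of group means of the 9 genes (rows) in 14 comparisons (columns), with WT or 3d as the denominator. Frames mark an adjusted p under 0.05 and grey italics mark pairs with no test. Frames fall on 4 genes in the age comparison and on 7 of 117 pairs in the mutants.

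In the mutants, 7 of 99 tests passed the adjusted threshold, beside 2.25% to 6.68% of all genes over the 13 comparisons. The 7 calls fell on 4 genes and on 2 of 7 genotypes, esc and Pcl. Ilp6 was lower in 3 comparisons, ImpL2 higher in 2, and Thor and foxo lower in 1 each. InR, chico, Akt1, Tor and S6k were called in no mutant, with Akt1 tested in 11 of the 13 comparisons and S6k in 12. By group means, 1 of 117 pairs passed 1.5-fold, which was Ilp6 in esc heads, beside 2.97% to 5.74% of all genes over the same comparisons. The single mutants of a tissue share their control libraries, so their values are given side by side and are not independent.

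Ilp6 in muscle had 103, 106 and 115 normalized counts in esc, against 159, 168 and 154 in WT. No esc library reached the lowest WT library. The log2 change was -0.56 ± 0.11 (SE, n = 3 each, adjusted p = 0.00367). It was the 1 gene called of 6 tested in esc muscle, beside 4.89% of all genes, and 0 of 9 passed 1.5-fold by means, beside 4.82%. The 7 fat body markers summed to 0.994 of the WT value in esc muscle, but 71.2% of the WT sum came from Rfabg. Of the 7, 4 were lower in esc by group means, namely Lsp2 (ratio 0.557), CG5966 (0.851), tobi (0.872) and Obp99b (0.935), and Rfabg (1.05), Fbp1 and Yp1 were higher. Without Rfabg the sum stood at 0.855 of WT. The part of the fat body in the lower Ilp6 was not tested.

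In heads, Ilp6 had 155, 159 and 151 normalized counts in esc, against 228, 240.3 and 232 in WT. These groups were far apart relative to their spread, with SDs of 4.02 in esc and 6.17 in WT. The log2 change was -0.58 ± 0.09 (SE, adjusted p = 0.00024). In esc heads the fat body markers stood at 1.01 times the WT sum, of which Rfabg made up 87.65%. Without Rfabg the sum stood at 1.19 times WT. Of the 7 markers, 5 were lower and Obp99b (ratio 1.51) and Yp1 were higher. The lower ones were Lsp2 (0.799), CG5966 (0.922), tobi (0.936), Rfabg (0.989) and Fbp1, and their part in the lower Ilp6 was not tested. Of 9 genes tested in esc heads, 3 were called, beside 3.71% of all genes, and Ilp6 with a ratio of 0.665 was the 1 past 1.5-fold by means, beside 2.97%.

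Pcl heads had 183, 199.8 and 181 normalized counts of Ilp6, against the same WT values of 228, 240.3 and 232. E(z) heads had 194, 186 and 184. Both mutants lay below all 3 WT libraries, by nearly equal amounts. The log2 change of -0.31 ± 0.09 in Pcl was called (SE, adjusted p = 0.0388) and that of -0.31 ± 0.09 in E(z) was not (adjusted p = 0.0549). The call in Pcl heads was lost whenever any 1 of the 6 libraries was left out, with log2 changes between -0.36 and -0.28 and adjusted p between 0.0532 and 0.131, and with all head libraries in 1 fit (0.152). In Su(z)12 heads, Ilp6 had 253, 191 and 197, with the highest value in the library that stood apart, and the log2 change was -0.14 ± 0.12. Without that library it was -0.27 ± 0.10 (SE, adjusted p = 0.111).

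In muscle of the other single mutants, Ilp6 lay lower in Pcl, with 132, 106 and 127 normalized counts against 159, 168 and 154 in WT. This did not pass the test, with a log2 change of -0.40 ± 0.11 (SE, adjusted p = 0.0665). E(z) muscle had 160.4, 146 and 181, Su(z)12 muscle 151, 166 and 140.1, and p55 muscle 108, 145 and 163, which overlapped WT in each case. The double mutants had their own controls. In esc E(z), Ilp6 had 113, 168 and 163 in muscle, against 179, 109.9 and 178 in WT, and 254, 194 and 227 in heads, against 248, 209 and 188 in WT. The groups overlapped in both tissues, with log2 changes of -0.06 ± 0.19 in muscle and 0.07 ± 0.12 in heads. Whether esc E(z) and esc differ in Ilp6 was not tested.

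Pcl Su(z)12 muscle, whose WT control is the 30d group of the age comparison, had 172, 185 and 248 normalized counts of Ilp6, against 240.3, 253 and 256 in WT. The third library of the mutant sat among the WT values. The log2 change was -0.32 ± 0.12 (SE, adjusted p = 0.18), and without that library it was -0.48 ± 0.09. That library was singled out by its Ilp6 value, so the second fit is a description and not a test. In heads of the same genotype, Ilp6 had 406, 304 and 426, against 372, 329.6 and 335 in WT, and the groups overlapped.

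**Figure D3:**
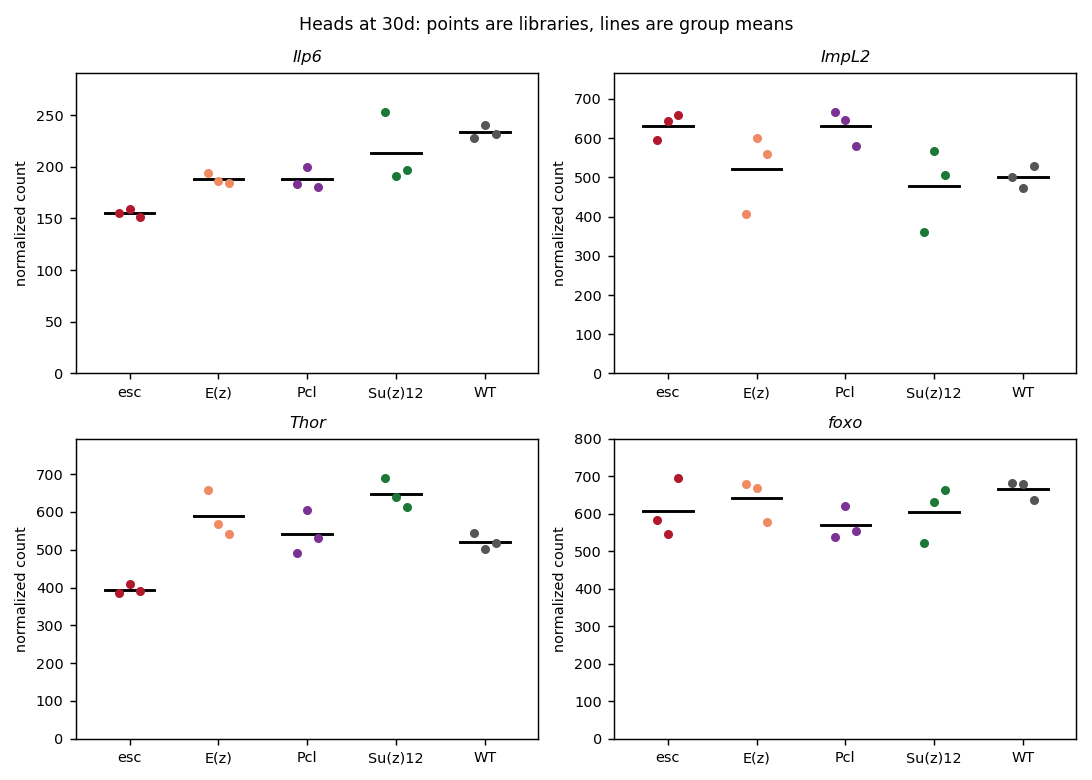
Normalized counts of Ilp6, ImpL2, Thor and foxo in heads at 30d of 4 single mutants and their shared WT control (right). Points are libraries and lines are group means. Ilp6 in esc (151 to 159) lies below WT (228 to 240.3), and ImpL2 in esc and Pcl lies above WT.

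ImpL2, which binds and sequesters insulin-like peptides, was higher in esc and Pcl heads. It had 594, 643 and 658 normalized counts in esc and 666, 646 and 579.9 in Pcl, against 499.9, 473 and 528 in WT. Each mutant library exceeded each WT library. Log2 changes were 0.34 ± 0.06 in esc (SE, adjusted p = 0.00258) and 0.33 ± 0.07 in Pcl (adjusted p = 0.00335). With all head libraries in 1 fit, neither was called (adjusted p = 0.211 and 0.16). By contrast, E(z) heads with 406, 599.9 and 561 and Su(z)12 heads with 361, 568 and 507 spread on both sides of WT. In both of these groups the deepest library was the lowest.

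In muscle, ImpL2 had 831, 924 and 969 normalized counts in Pcl, against 855, 681 and 828 in WT, with overlap and a log2 change of 0.21 ± 0.08 (SE, adjusted p = 0.229). In esc muscle its group mean was 952, against 788 in WT, a log2 ratio of 0.27 (0.19 to 0.35, counting error only). The libraries of that group had 3 solutions. The 1 solution in which each library lay within 20% of the mean gave a log2 change of 0.28. It was picked by its low spread, so its SE and p-value are not given. In the double mutants, log2 ratios of ImpL2 group means lay between -0.07 and 0.16.

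Thor, the translation repressor that foxo activates, was lower in esc heads. It had 385, 408 and 391 normalized counts in esc, against 543, 501 and 519 in WT, a log2 change of -0.40 ± 0.06 (SE, adjusted p = 0.000533). The groups did not overlap, and with all head libraries in 1 fit the adjusted p was 0.0682. Su(z)12 heads stood on the other side of WT with 691, 641 and 614, a log2 change of 0.31 ± 0.10 that did not pass (adjusted p = 0.127). Without the library that stood apart it was 0.27 ± 0.07 (SE, adjusted p = 0.0216). E(z) heads had 659, 569 and 540.4 and Pcl heads 491, 605 and 531, both overlapping WT.

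In esc E(z) heads, Thor had 499, 670.5 and 731 normalized counts, against 613, 502 and 447 in WT, and the log2 change of 0.28 ± 0.13 did not pass (SE, adjusted p = 0.261). Leaving out the deepest esc E(z) library, the lowest of the mutant, gave 0.44 ± 0.11. That fit was singled out by the Thor value of the library, so it is not a test. For muscle there are group means of Thor alone. They were 1091 in p55, 1149 in Su(z)12, 1019.9 in Pcl, 1026 in E(z) and 1013 in esc, against 1182 in the shared WT control. Each of the 5 lay below WT, by log2 ratios of -0.22 to -0.04, and the counting interval of Su(z)12 included 0.

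The transcription factor foxo fell in Pcl heads, with 539, 619.8 and 553 normalized counts against 681, 679 and 636 in WT. No Pcl library reached the lowest of WT. The log2 change was -0.22 ± 0.06 (SE, adjusted p = 0.0388), and the call held in 2 of 6 fits with a library left out (adjusted p from 0.0222 to 0.161) and not with all head libraries in 1 fit (0.305). With Ilp6 and ImpL2 it made 3 genes called of 9 tested in Pcl heads, beside 6.33% of all genes, and 0 passed 1.5-fold, beside 3.67%. In esc E(z) heads foxo had 707, 813 and 778, against 799.7, 636 and 594 in WT, a log2 change of 0.19 ± 0.09 (SE, adjusted p = 0.31). Without the deepest WT library, which was as high as the mutant, it was 0.32 ± 0.08. Choosing that library by its foxo value makes this a description and not a test. In muscle, log2 ratios of foxo means lay between -0.12 and 0.03 in the 7 mutants.

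InR, the receptor, was called in no mutant. In Su(z)12 heads it had 108, 233 and 245 normalized counts, against 296, 251 and 296 in WT. The deepest library, which stood apart over all genes, was far below the other 2. The log2 change was -0.61 ± 0.25 (SE, adjusted p = 0.249), and -0.23 ± 0.10 without that library (adjusted p = 0.19). Pcl Su(z)12 heads had 349, 359 and 436, against 359.8, 297 and 303 in WT, a log2 change of 0.25 ± 0.10 (adjusted p = 0.246). In muscle, p55 had 113, 135 and 194 and E(z) 215, 144 and 192, against 155, 169.8 and 189 in WT, so each spanned the WT range.

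Akt1 was called in muscle in none of the 5 single mutants. Its mutant libraries lay below the 3 shared WT libraries, but how many of all genes did so was not counted. It had 476, 455 and 522 normalized counts in p55, 550.0, 418 and 512 in Su(z)12, 518, 502 and 543 in E(z), 554, 476 and 544 in esc and 522, 550.5 and 536 in Pcl, against 562, 569 and 597 in WT. These 5 comparisons share the 3 WT libraries. The log2 changes ranged from -0.25 ± 0.10 in p55 (SE, adjusted p = 0.255) to -0.10 ± 0.07 in Pcl (adjusted p = 0.514). In heads the 4 single mutants lay between -0.09 and 0.07 on the log2 scale. Akt1 in Pcl Su(z)12 muscle had 790.5, 842 and 978, against 954, 906 and 976 in WT, a log2 change of -0.12 ± 0.07 (adjusted p = 0.417). Without the third mutant library, the highest of the mutant, it was -0.21 ± 0.06, a choice made by value and not a test.

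**Figure D4:**
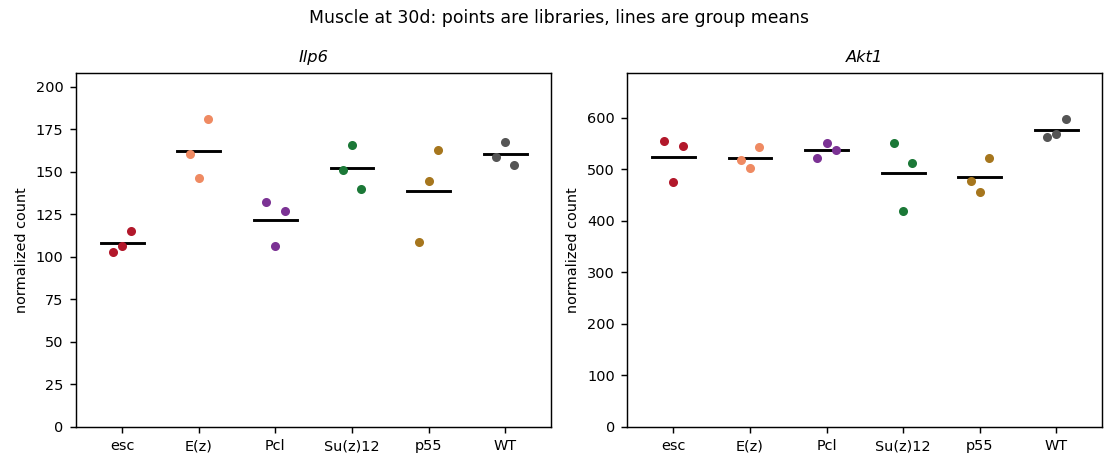
Normalized counts of Ilp6 and Akt1 in muscle at 30d of 5 single mutants and their shared WT control (right). Points are libraries and lines are group means. Ilp6 in esc (103 to 115) lies below WT (154 to 168). The Akt1 points of the mutants lie below the 3 WT points (562 to 597), which all 5 mutants share, and none was called. The share of all genes lying so was not counted.

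The adaptor chico had a lower group mean in 12 of 13 mutant comparisons, yet by small amounts. Its log2 ratios of group means ran from -0.16 to 0.04 and no test passed. In Pcl muscle, chico had 304, 302 and 309 normalized counts, against 356, 296 and 338 in WT. Tor had log2 ratios of -0.16 to 0.13, with a lower mean in 6 and a higher mean in 7 comparisons. In Pcl, Tor had 343, 394 and 351 in muscle, against 361, 418 and 438 in WT, and 443, 427 and 416 in heads, against 409.7, 354 and 408 in WT. S6k ranged from -0.27 to 0.16, the lowest in p55 muscle. There it had 399, 386 and 447, against 498, 479 and 509.9 in WT, without overlap, and the log2 change was -0.27 ± 0.10 (SE, adjusted p = 0.228). With all muscle libraries in 1 fit, the same change had an adjusted p of 0.0309.

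In the remaining comparisons none of the genes tested was called. In muscle, 8 of the 9 genes were tested in p55, Su(z)12, Pcl and E(z) and 6 in each double mutant. In heads, all 9 were tested in Su(z)12, E(z) and esc E(z), but only 4 in Pcl Su(z)12. With limma the share of all genes called in muscle was 2.25% for p55, 6.68% for Su(z)12, 3.05% for Pcl, 3.01% for E(z), 4.57% for Pcl Su(z)12 and 4.55% for esc E(z). For heads it was 2.78% for Su(z)12, 4.28% for E(z), 3.64% for Pcl Su(z)12 and 5.63% for esc E(z). At an unadjusted p under 0.05, these 10 comparisons held 0 to 2 each of those of the 9 genes that were tested, beside 1037 to 1539 of the 7341 to 7988 genes tested. None of the 9 passed 1.5-fold by means in them, where the share of all genes in muscle was 4.41% for p55, 5.66% for Su(z)12, 3.6% for Pcl, 4.12% for E(z), 4.95% for Pcl Su(z)12 and 4.34% for esc E(z). For heads that share was 5.74% for Su(z)12, 3.44% for E(z), 4.28% for Pcl Su(z)12 and 4.41% for esc E(z). Over 13 mutant comparisons the median log2 ratio of means ran from -0.21 for Ilp6 to 0.06 for ImpL2.

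Whether a mutant acted differently on a gene in muscle and heads was tested as an interaction over 12 libraries. For 40 of 54 pairs of gene and mutant the test could be made, and 0 passed. The lowest adjusted p was 0.387, and no pair passed in any alternative run. At an unadjusted p under 0.05 there were 6 pairs, namely Ilp6 and Akt1 in E(z), Tor in Pcl, foxo in esc E(z), and Ilp6 and InR in Pcl Su(z)12. The share of all genes at that unadjusted cut was not counted for the interaction. Among all genes 0.84% were called for Su(z)12, 0.653% for E(z), 0.387% for esc, 0.334% for Pcl Su(z)12, 0.192% for esc E(z) and 0.16% for Pcl. For Ilp6 in esc, the change in muscle minus that in heads was 0.02 ± 0.13 on the log2 scale (SE, adjusted p = 0.988). Akt1 in E(z) was lower than WT in every muscle library and higher in every head library, with a difference of -0.21 ± 0.09 (SE, adjusted p = 0.388).

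Other pathway genes were called in 10 of the 13 mutant comparisons, with 1 to 3 genes each of 28 to 37 tested. These were 2.78% to 9.38% of the list, beside 2.25% to 6.68% of all genes over the 13 comparisons, so the genes named next describe single calls and nothing particular to the list. Iml1, a subunit of the GATOR1 complex that restrains Tor when amino acids are scarce, rose in muscle of E(z) by 0.72 ± 0.07 and of Su(z)12 by 0.73 ± 0.07 on the log2 scale (SE, adjusted p = 7.34e-05 and 1.56e-05). The gene conv, listed as a secreted binding protein, had a lower group mean in 12 of 13 mutant comparisons, by log2 ratios of -1.15 to -0.56, and p55 muscle was the exception (0.01). It was called in 4, with log2 changes in Su(z)12 muscle (-1.11), Pcl Su(z)12 muscle (-0.88), Pcl heads (-0.86) and Pcl Su(z)12 heads (-0.97). Lip4 rose in esc muscle (0.69), esc heads (0.27) and esc E(z) heads (0.62). The triglyceride lipase gene bmm, another foxo target, fell in esc muscle (-0.40) and esc E(z) heads (-0.23) and rose in Pcl heads (0.28). The deacetylase gene Sirt1 rose in esc muscle (0.37), step in esc E(z) muscle (0.28), and REPTOR, a transcription factor held back by Tor, fell in Su(z)12 heads (-0.53). Of the brain insulin genes, Ilp3 rose in esc heads, with a mean of 16.95 against 6.41 in WT, and Ilp5 fell in Pcl heads, with a mean of 21.8 against 44.4 in WT.

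The WT groups also differed among themselves. In each tissue, 3 WT groups at 30d were sequenced for different comparisons, and after rescaling to each other by the median of ratios their means could be set side by side. InR differed most among the 9 genes. In muscle its rescaled means were 262 in the age series, 211 in the control of the single mutants and 158 in the control of esc E(z), a 1.66-fold range that exceeded that of 95.9% of 8737 genes. In heads they were 349 in the control of the single mutants, 250.3 in that of Pcl Su(z)12 and 254 in that of esc E(z), a 1.39-fold range above that of 92.2% of 9015 genes. Ilp6 in heads ranged 1.3-fold, with 289.5 in the control of the single mutants, 270.3 in that of Pcl Su(z)12 and 222 in that of esc E(z). The control against which Ilp6 was low in esc and Pcl heads was thus the highest of the 3. The control of the single mutants was also highest for Ilp6 in muscle (197, against 189.4 and 167.2), where esc was called lower. The same held for Thor in heads (646.3, against 598.6 and 537.6), again called lower in esc. The mutants were not rescaled with these groups, and the part of the control in the lower values was not tested. For ImpL2 and foxo in heads, this control lay between the others. ImpL2 varied least, by 1.04-fold in muscle and 1.05-fold in heads.

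**Figure D5:**
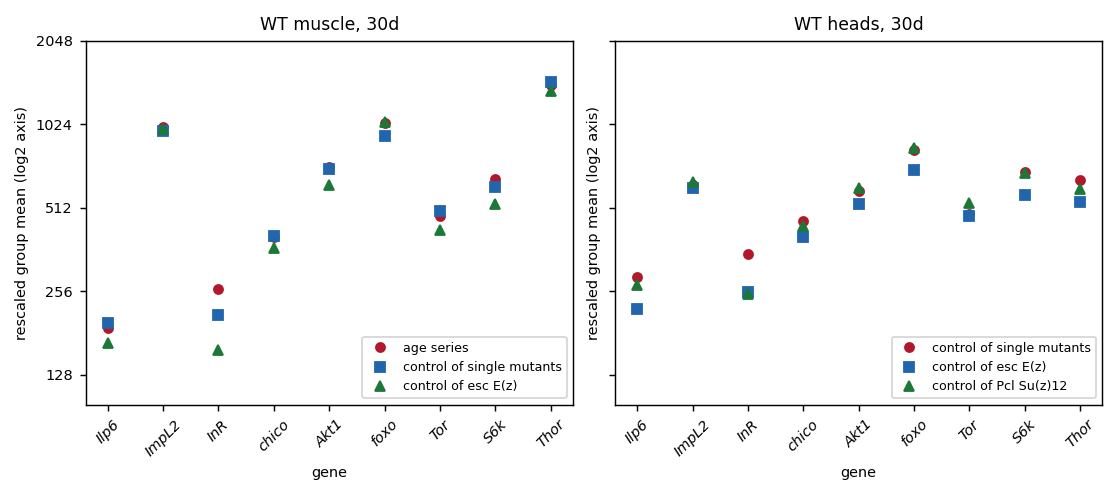
Rescaled group means of the 9 genes in the 3 WT groups at 30d of each tissue, on a log2 axis. Symbols mark the comparison each WT group served. InR spreads from 158 to 262 in muscle, and ImpL2 nearly coincides in all 3 groups.

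The genes most like each of the 9 over muscle were found by Pearson's r, as a description. Over 33 libraries these were CG31445 (0.67) and LKR (0.66) for Ilp6, Camta (0.86) and Trf2 (0.84) for InR, mnb (0.91) and CR45161 (0.89) for chico, l(3)72Ab (0.72) and CG14803 (0.71) for Tor, and InR (0.81) and Mnt (0.77) for S6k. The 33 libraries share tissue, and those of a comparison share its scaling. For the genes whose libraries were not solved throughout, 11 group means gave CG1315 (0.86) and CG10555 (0.83) for ImpL2, CG5059 (0.91) and CG11180 (0.90) for Akt1, side (0.99) and nwk (0.99) for foxo, and CG15706 (0.93) and CG12851 (0.93) for Thor. These means were rescaled in the same way and mix the same ages and comparisons.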

How the data were processed

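Flies, tissues and libraries were as described above. Per the labels and the paper, the authors aligned single-end reads of 100 bases to dm6 with STAR, counted them per gene with HTSeq without strand and compared groups by DESeq. The signal that the authors deposited is a mean per group of normalized counts. Their columns of fold change and p-value hold the findings of the study and were not used. Reads of each library were solved from the means of 3 libraries, which are sums of whole reads times 3 fixed steps. A solution was kept where it was the only one with each library within 50% of the mean, for means under 1000. Of 159339 values with a mean of 10 to 1000, 157231 were solved and 11 had no solution. Library ratios of the solved reads matched the size factors to within 0.0171 on the log2 scale. Size factors ran from 0.727 to 1.54. Where libraries were not solved, the ratio of means is given with a 95% interval from counting error alone.

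Solved values were tested by limma 3.58.1 in R 4.3.3 with a mean-variance trend on log2(normalized count + 1), each pair of groups by itself, with Benjamini-Hochberg adjustment over genes with a mean of at least 10. A log2 change on this scale understates that of low genes. Alternatives were pseudocounts of 0.5 and 5, no filter and a mean of at least 50, recomputed median of ratios and equal sums, an unadjusted p, voom weights, 1 fit over all libraries of a tissue, folds of 1.2 and 2, and each library left out. Values within 20% of the mean for unsolved genes, and equal sums for the other pathway genes, were added after the data were seen. The solving and the tests were tested on simulated data. Named genes are the 9, the 2 genes most like each of the 9 among those with a mean of at least 50, and other pathway genes called. Of the last, at most 3 per comparison were planned. With age, step, Lnk, Pi3K92E, Lst8, Sin1 and Tsc1 were named beyond that limit, after their values were seen. The members, lists and tests were chosen with earlier results of these data known. Exon lengths, positions and sequence are from Ensembl BDGP6 and RefSeq dm6. The IDs of InR and S6k differ between the tables and the annotation, and these genes were matched by symbol. The titles of some muscle WT controls disagree with their descriptions, and the titles were used. Some results of the wider pathway list are not reported here. Another 75 samples of the series, among them chromatin and small RNA libraries, were not used here. Python 3.11.15 and numpy 2.4.6 were used.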

Additional observations from a re-analysis of the deposited data

Results flagged for a closer look

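Akt1 in E(z) was flagged because every mutant library lay below every WT library in muscle and above every WT library in heads. The nearest libraries in heads stood at 489.9 in E(z) and 488 in WT. The share of all genes that separate in this way was not counted. The change in muscle minus that in heads was -0.21 on the log2 scale, and the interaction test did not pass (adjusted p = 0.388). Its libraries had 518, 502 and 543 normalized counts in E(z) muscle, against 562, 569 and 597 in WT, and 496, 508 and 489.9 in E(z) heads, against 468, 469 and 488 in WT.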

How the results depend on the processing

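Calls of the 9 genes changed with these settings. At an unadjusted p under 0.05 the genes called were 2 for p55, 1 for Su(z)12, 2 for Pcl and 1 for Pcl Su(z)12 in muscle, and 2 for Su(z)12, 2 for E(z), 1 for Pcl Su(z)12 and 1 for esc E(z) in heads, against 0 in each with adjustment. In these comparisons 1037 to 1539 of the 7341 to 7988 genes tested passed the same cut. With all libraries of a tissue in 1 fit, the counts were 1 in p55 muscle (S6k), 1 in esc heads (against 3), 0 in Pcl heads (against 3) and 1 in Su(z)12 heads (InR). In E(z) heads Ilp6 was called, as 1 gene against 0, with a mean of at least 50, with equal sums, and with values within 20% of the mean for unsolved genes. Under equal sums chico turned to 0.14 with age. With 1 library left out, the genes called stayed at 4 with age, 1 in esc muscle and 3 in esc heads, and ranged from 1 to 2 in Pcl heads, 0 to 2 in Pcl Su(z)12 muscle, 0 to 1 in Su(z)12 and esc E(z) heads, and stayed at 0 in the others. No call of the interaction changed under any setting run.

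At 1.2-fold, the genes past the limit by group means were 5 with age, 1 for p55, 1 for Pcl, 2 for esc and 1 for Pcl Su(z)12 in muscle, and 2 for Su(z)12, 2 for Pcl, 3 for esc, 1 for E(z) and 1 for esc E(z) in heads. The share of all genes past 1.2-fold was not counted. With age, the median absolute log2 ratio of group means over all genes was 0.31, which is itself past 1.2-fold. The count of 5 with age therefore does not set these genes apart from all genes. In the mutants that median ran from 0.098 in esc heads to 0.17 in Su(z)12 heads, short of 1.2-fold. At 2-fold, 0 of the genes described here passed with age and 0 in esc heads, against 1 each at 1.5-fold. Of the other pathway genes, an unadjusted p gave in muscle 4 for p55 (against 0), 7 for Su(z)12 (2), 7 for Pcl (0), 3 for E(z) (1), 6 for esc (3), 2 for Pcl Su(z)12 (1) and 6 for esc E(z) (1). In heads it gave 4 for Su(z)12 (1), 8 for Pcl (3), 5 for E(z) (0), 6 for esc (2), 4 for Pcl Su(z)12 (1) and 8 for esc E(z) (2). Equal sums gave 24 with age, against 12.

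Over all genes, an unadjusted p raised the mutant counts of 177 to 532 to between 1037 and 1539, of 7341 to 7988 genes tested. One fit over a tissue gave 1019 in Su(z)12 heads against 214, 478 in p55 muscle against 177, 234 in Pcl Su(z)12 muscle against 363, 148 in esc heads against 285 and 291 in Pcl heads against 483. With 1 library left out the mutant counts ran from 85 to 568, and reached 545 in Su(z)12 heads without the deepest mutant library, 568 in Pcl Su(z)12 muscle without the third and 515 in Pcl Su(z)12 heads without the second. Equal sums gave 6338 with age against 3432. The cause of these shifts was not tested.

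No paired analysis was possible because the solved libraries carry no replicate number. Libraries of means of 1000 and more were not solved, so Thor in muscle has no test. Other pairs had no test either, among them ImpL2, Akt1, foxo, S6k and Thor in Pcl Su(z)12 heads.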
